A study of Mus musculus with 8 samples.

Results

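The maturation of control sympathetic ganglia was described between embryonic day 11.5 (E11.5) and E14.5 of the mouse, from 4 of the 8 RNA-seq libraries of the series. Members were chosen by their labels alone, 2 libraries labelled wild type from each stage. The study as a whole compared ganglia lacking the LIM-homeodomain transcription factor Isl1 with controls, by Wnt1-Cre deletion at the earlier stage and by a hypomorphic Isl1 genotype at the later one, and the other 4 libraries are those mutants. At E11.5 the controls carried Wnt1-Cre and 2 intact Isl1 alleles together with a Rosa26-tdTomato reporter, and ganglia were dissected from fluorescent embryos of E11.5 to E12 under a fluorescence stereoscope. At E14.5 the controls were wildtype (Isl1+/+) embryos with no Cre and no reporter stated. Wnt1-Cre is active in neural crest derivatives, so the reporter marks ganglion neurons and glia alike. Each library was made from whole ganglia pooled from about 10 embryos or more, so fewer cells of a type and less RNA per cell cannot be told apart in any value below. Stage, control genotype, dissection and processing run went together and cannot be told apart either.

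Sympathetic neurons descend from trunk neural crest cells that gather beside the dorsal aorta, where bone morphogenetic proteins switch on a set of transcription factors that includes Phox2a, Hand2, Gata2 and Gata3. The young neuroblasts make noradrenaline while they still divide, which sets them apart from most neurons, and later leave the cell cycle, extend axons and come to depend on nerve growth factor from their targets. Glia of the same ganglia, the satellite cells, descend from crest cells that keep Sox10.

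Expression was available as 1 value per gene and stage, the authors' FPKM (fragments mapped to a gene, scaled to its transcript length and to the mapped fragments of the library) over both libraries of a genotype. With no value per library there was no spread, no test and no known depth behind any difference, and every statement below compares 2 values. The stages were estimated in separate runs, so levels were set side by side across tables normalised separately. The measure of difference was log2((E14.5 + 0.1)/(E11.5 + 0.1)), which understates the change of genes near the pseudocount of 0.1 FPKM, and a gene was counted as higher or lower at E14.5 when the values differed by 2-fold or more. Of 13506 genes listed at E11.5 and 13413 at E14.5, 12727 symbols were in both, and 12548 were compared after 178 small RNA genes and 1 other gene at 0 were left out. Higher at E14.5 were 1638 genes (13.1%) and lower were 828 (6.6%), with a median of 0.23 over all genes. Centring on that median gave 1057 higher and 1171 lower, so the share of higher genes among those 2-fold apart went from 66.4% to 47.4% with the scaling.

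Properties of the sequence moved with the ratio in these tables, before any grouping by function. Transcripts were cut into 90-base windows, the read length of the libraries, and a gene's shared sequence was the share of its windows that also aligned elsewhere in the mm9 genome. The median ratio went from 0.35 in 8765 genes with no shared window through -0.34 in 454 genes at 25 to 50% to -2.0 in 379 genes above 75%, of which 80.2% were lower at E14.5. The 15 lowest ratios among genes at 10 FPKM or more, among them Rpl24 and Rpl35, were all in genes with 10% or more of their windows shared. Ribosomal protein genes are the main family of this kind, with many processed pseudogenes, and their summed FPKM was 57354 at E11.5 and 8822 at E14.5, against 91248 in the mutant column of the first table and 9286 in that of the second. The gap was thus wider between the tables than between the genotypes of either, and its cause was not tested. In the 10417 genes with under 10% of windows shared, 1523 were higher (14.6%) and 268 lower (2.57%), with a median of 0.31.

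GC content moved with the ratio as well. Over the genes with under 10% shared, the median was higher in each of 10 successive bins of equal size, from -0.18 at a median GC of 40.84% to 0.76 at 60.53%, while bins of transcript length had medians between 0.28 and 0.33. Each of these genes was therefore also given relative to the median of genes in the same GC bin, called the like-GC value below, on which 648 were 2-fold or more higher (6.22%) and 442 lower (4.24%). Groups of genes below are lists of known members, and joined members are those compared at both stages. Counts of joined members stand against 13.1% higher and 6.6% lower of all genes compared. Counts on the like-GC scale stand against 6.22% and 4.24% of the genes with under 10% shared.

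**Figure D1:**
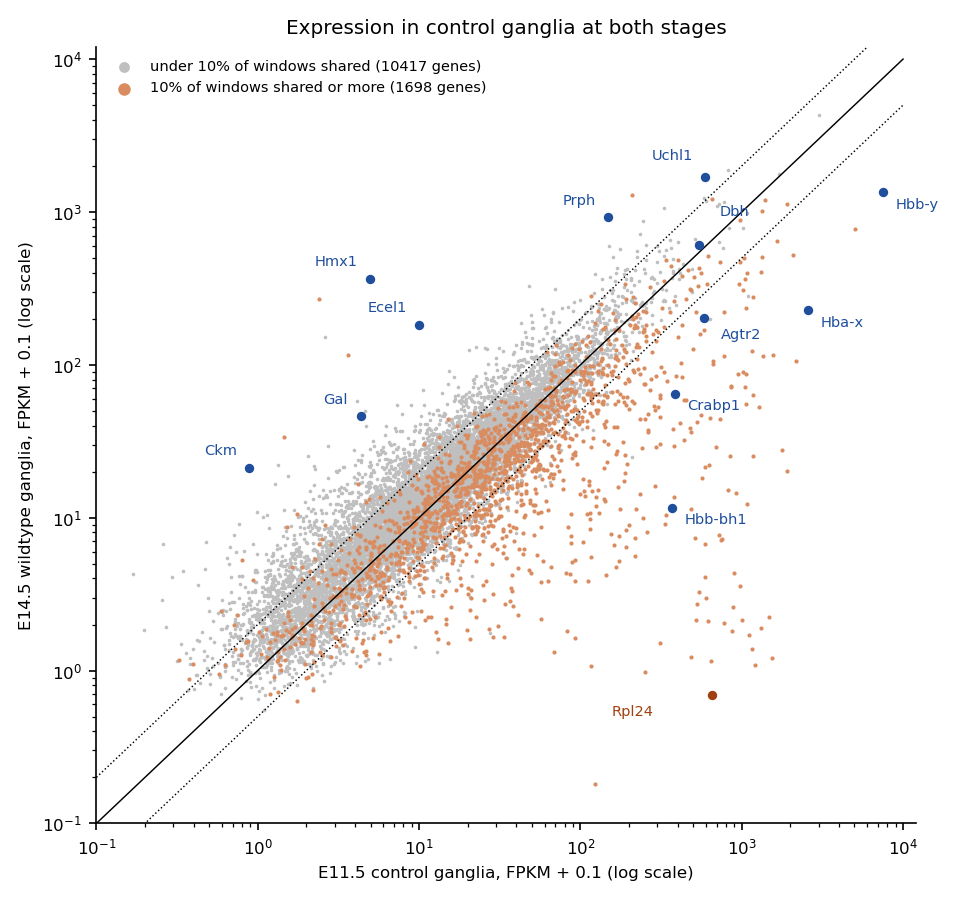
Control FPKM of 12115 genes matched to the annotation, E11.5 on the x axis and E14.5 on the y axis, both on a log scale after adding 0.1. Grey points are genes with under 10% of windows shared, orange points those with more, the solid line marks equal values and the dotted lines 2-fold. Hmx1 (4.88 and 366 FPKM) and Ecel1 (9.91 and 182 FPKM) stand apart above the line, and the deepest points below it, such as Rpl24 (655 and 0.59 FPKM), are orange.

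**Figure D2:**
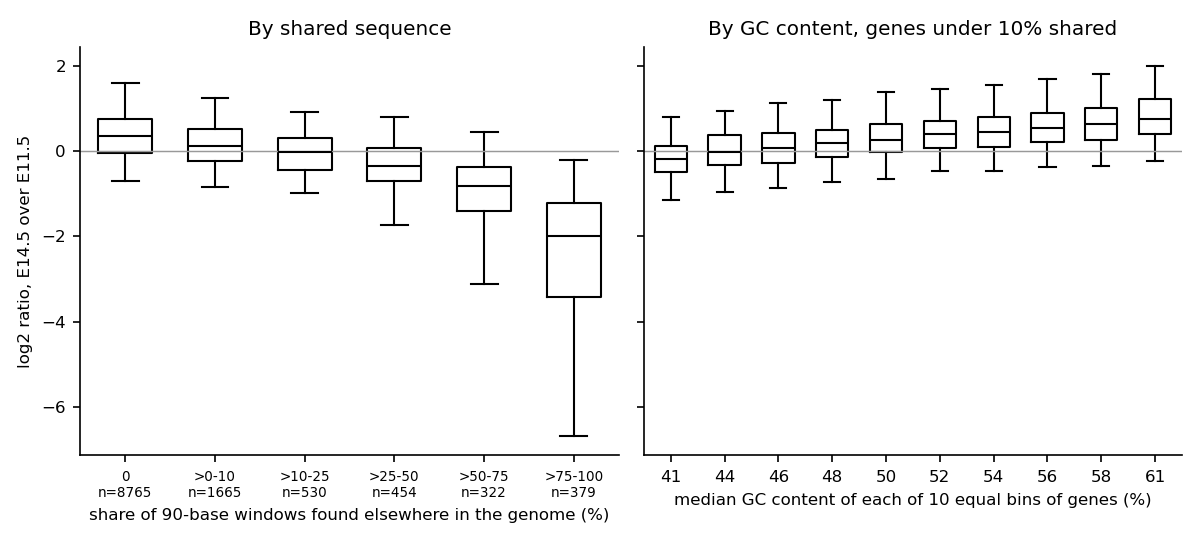
Log2 ratio (E14.5 over E11.5) by the share of windows found elsewhere in the genome (left) and by 10 bins of GC content among genes with under 10% shared (right). Boxes span the quartiles with the median as a line, and whiskers the 5th to 95th percentile; the left medians go down to -2.0 and the right medians go up to 0.76.

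The ganglion label was checked first. Dbh, dopamine beta-hydroxylase, which makes noradrenaline from dopamine, was at 543 FPKM at E11.5 and 608 FPKM at E14.5. Th, tyrosine hydroxylase, was at 184 and 279.6 FPKM at the earlier and later stage. Both were abundant at each stage, as were Phox2a, a homeodomain factor of autonomic neurons, at 223 and 553 FPKM, and the neuronal ubiquitin hydrolase Uchl1 at 594 and 1693 FPKM. Of 31 spinal cord and brain markers 1, Gad2, a GABA synthesis enzyme at 1.57 and 2.41 FPKM, was listed in both tables. A gene was listed where the larger genotype of its table reached 1 FPKM. Of 8 joined sensory neuron markers 1 was higher and 1 lower (sums 93.8 and 79.2). Most of these sums came from Tlx3, at 49.5 and 32.8 FPKM, and Shox2, at 21.5 and 26.8 FPKM. Both are also in the list of sympathetic factors below. Of 9 joined chromaffin cell markers, several of which sympathetic neurons also make, 3 were higher and 1 lower. Over all genes 13.1% were higher and 6.6% lower.

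RNA of other tissues was present at both stages. Globins were abundant in it, the embryonic forms with Hbb-y at 7552 and 1353 FPKM, Hba-x at 2572 and 228 FPKM and Hbb-bh1 at 370.0 and 11.5 FPKM. These 3 early globins were lower at E14.5, while Hbb-b2, an adult beta globin with 36.4% of its windows shared, was higher, at 208 and 1297 FPKM. Hba-a2, an adult alpha globin with 70.6% shared, went the other way, at 124 and 0.081 FPKM. Skeletal muscle markers were higher in 8 of 16 joined genes and lower in 0 (4 and 0 of 15 on the like-GC scale), with Ckm, muscle creatine kinase, at 0.789 and 21.1 FPKM, Acta1, skeletal actin, at 39.7 and 135 FPKM and Tnni2, a fast troponin, at 3.9 and 21.9 FPKM; the summed FPKM of the list was 252 and 580.5. Mesenchyme markers split, 13 of 35 joined genes higher and 4 lower (9 and 5 on the like-GC scale), with sums of 1378 and 2391. Collagens were on the higher side, Col1a1 at 175 and 571 FPKM and Col3a1 at 136 and 365 FPKM, and early mesenchymal regulators on the lower, Foxc1 at 9.93 and 2.99 FPKM and Pdgfra, a platelet-derived growth factor receptor, at 22.5 and 9.76 FPKM. Endothelial markers (27 joined, sums 173 and 219.8) had 1 gene higher and 1 lower, and macrophage markers (22 joined, sums 101 and 121) had 0 and 0. Liver and yolk sac markers were higher in 7 of 8 (5 on the like-GC scale), with sums of 86.5 and 272. Most of that was Apoe, at 67.7 and 222 FPKM, which also belongs to the glial list below. Alb, serum albumin, was low, at 1.81 and 9.47 FPKM. The part that muscle, connective tissue and blood RNA have in the other values was not tested.

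Among transcription factors the outstanding value was Hmx1, a homeobox gene of neural crest derived ganglia (chr5:35731507-35742379 in mm9). It stood at 4.88 FPKM at E11.5 and 366 FPKM at E14.5, a log2 ratio of 6.20 and a like-GC value of 5.44. It had the second largest ratio of the 8169 genes at 10 FPKM or more at either stage, after the pseudogene Rplp2-ps1, and the largest among the 6683 of them with under 10% shared. The mutant columns of the same tables held Hmx1 at 0.774 FPKM at E11.5 and 108 at E14.5. The earlier mutant was a conditional knockout and the later one a hypomorph, so stage and Isl1 level cannot be told apart in that pair. Casz1, a zinc finger factor, was at 4.1 and 23.8 FPKM, Tbx20, a T-box factor, at 7.9 and 24.6 FPKM, and Insm2, a relative of the neuroendocrine factor Insm1, at 33.2 and 94.8 FPKM. Their like-GC values were 1.86, 1.43 and 0.75, so Insm2 was under 2-fold on that scale. With the hypomorphic column in place of the wildtype column Tbx20 was at -0.13, on the other side of level.

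The core factors of the sympathetic programme differed less. Gata2 was at 42.8 and 129 FPKM, Phox2a at 223 and 553 FPKM and Hand2 at 298 and 474 FPKM. Their like-GC values were 0.94, 0.55 and -0.09, none of them 2-fold, and that of Hand2 had the opposite sign to its plain ratio of 0.67. Isl1 itself was at 133 and 162 FPKM, Gata3 at 79.1 and 91.8 FPKM and Hand1 at 224 and 174 FPKM, each within 2-fold on the plain ratio. On the like-GC scale Hand1 was 2-fold lower, at -1.01. Over the whole list of 56 joined sympathetic factors, 11 were higher and 5 lower with a median of 0.19, against 13.1% and 6.6% of all genes. On the like-GC scale the balance turned, with 6 higher and 10 lower and a median of -0.06.

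Receptors for target-derived growth factors differed among themselves. Gfra3, the co-receptor for artemin, was at 68 and 217 FPKM, and Ngfr, the low-affinity neurotrophin receptor p75, at 27.7 and 49.5 FPKM. Values below those of E11.5 were found for Ntrk3, the neurotrophin-3 receptor, at 25.8 and 16 FPKM, Ret, the signalling receptor of the GDNF family, at 106 and 68.8 FPKM and Gfra1, the GDNF co-receptor, at 14 and 6.61 FPKM, of which Gfra1 passed 2-fold on the plain ratio. Of 21 joined receptors and accessory genes 4 were higher and 1 lower, against 13.1% and 6.6% of all genes, and on the like-GC scale 3 were higher and 4 lower.

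Catecholamine genes were already abundant at E11.5. Of 20 joined genes 8 were higher and 0 lower, with a median of 0.74, against 13.1% and 6.6% of all genes. On the like-GC scale 4 of 19 were higher, against 6.22% of all such genes. Slc6a2, the noradrenaline transporter, was at 61.4 and 178 FPKM, and Ddc, aromatic amino acid decarboxylase, at 195 and 425 FPKM. Cyb561, which supplies electrons for noradrenaline synthesis inside the vesicle, was at 153 and 376 FPKM and Slc18a2, the vesicular monoamine transporter, at 75.9 and 133 FPKM. Th and Dbh had log2 ratios of 0.61 and 0.16 and like-GC values of 0.16 and -0.38, both within 2-fold. The autoreceptor genes Adra2a and Adra2c were low at first, at 4.85 and 21.3 FPKM and at 2.36 and 11.1 FPKM.

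Neuropeptide genes and granule genes had medians of 1.0 and 0.97, beside the 0.74 of catecholamine genes, and like-GC medians of 0.77 and 0.56, beside 0.66, so granule genes stood above catecholamine genes on the plain scale only. Gal, galanin, was at 4.24 and 45.9 FPKM, a log2 ratio of 3.41. Npy, neuropeptide Y, the common cotransmitter of noradrenaline, was at 123 and 395 FPKM. Cartpt, the CART prepropeptide, was the exception among 13 joined peptides, of which 7 were higher (4 on the like-GC scale) and 1 lower: it was at 638 and 200.5 FPKM and went from the most abundant peptide of the list to below Npy. Vip and Sst, peptides with roles in cholinergic neurons, were at 26.9 and 18 FPKM and at 44.6 and 74.9 FPKM. Of 20 joined granin and prohormone processing genes 10 were higher (3 on the like-GC scale) and 1 lower, the latter again Cartpt. Over all genes 13.1% were higher and 6.6% lower, or 6.22% and 4.24% on the like-GC scale. Chgb, chromogranin B (chr2:132607014-132620815), was at 69.5 and 314 FPKM, Chga, chromogranin A, at 164 and 352 FPKM and Scg5, the chaperone of prohormone convertase 2, at 25.5 and 129 FPKM.

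Th and Chgb hold the letters of a cyclic AMP response element (CRE) close to the start site, and the 180 bases before the RefSeq start (GRCm38.p6) are shown to place it, with the CRE letters TGACGTCA in capitals. This motif, which reads the same on both strands, was in the 250 bases before the start of 3.24% of 9452 compared genes with a promoter in the table, 1 of 14 catecholamine genes and 3 of 17 granin genes. Its last base lay 38 bases before the start in Th and 65 in Chgb.
Th, chr7:142899996-142900175, minus strand: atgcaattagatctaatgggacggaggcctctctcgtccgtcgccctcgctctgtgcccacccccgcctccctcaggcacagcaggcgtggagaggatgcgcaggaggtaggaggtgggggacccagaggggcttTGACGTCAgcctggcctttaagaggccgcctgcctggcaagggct
Chgb, chr2:132781462-132781641, plus strand: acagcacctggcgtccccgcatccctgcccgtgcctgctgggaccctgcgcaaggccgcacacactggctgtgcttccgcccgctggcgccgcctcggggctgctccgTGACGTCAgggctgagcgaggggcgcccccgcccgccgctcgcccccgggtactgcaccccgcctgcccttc
The like-GC values beside these sequences were 0.16 for Th and 1.73 for Chgb, so the same letters stood before a gene within 2-fold of level and a gene beyond it.

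Cholinergic genes were measurable at both stages in these mostly noradrenergic ganglia. Slc18a3, the vesicular acetylcholine transporter, was at 33.3 and 32 FPKM. Chat, the acetylcholine synthesis enzyme, was low, at 1.83 and 1.64 FPKM, as was the choline transporter Slc5a7, at 2.64 and 1.84 FPKM. Both lay near the 1 FPKM at which genes were listed. Ache, acetylcholinesterase, which noradrenergic neurons also make, was at 8.83 and 54.5 FPKM, a log2 ratio of 2.61 and a like-GC value of 1.85. Of 12 joined genes 2 were higher, Ache and Lifr, the leukaemia inhibitory factor receptor at 11.6 and 26.8 FPKM, and 0 were lower. These counts stand against 13.1% and 6.6% of all genes. The list's median was 0.09, and its like-GC median over 8 members was 0.03, both near level. The nicotinic receptor subunits that carry fast input from the spinal cord stood at differing ratios, Chrna3 at 48.1 and 84.2 FPKM, Chrnb4 at 6.47 and 23.1 FPKM and Chrnb2 at 16.7 and 34.3 FPKM, within a list of 14 joined receptor genes of which 8 were higher (4 on the like-GC scale) and 0 lower. The study defined lists of genes enriched in noradrenergic and in cholinergic neurons, which were chosen by its authors and are not independent evidence of a direction here. Of 38 joined noradrenergic genes 13 were higher and 0 lower, with a median of 0.65 and a like-GC median of 0.24. Of 41 joined cholinergic genes 10 were higher and 4 lower, or 7 and 8 of 37 on the like-GC scale, with medians of 0.18 and -0.08. On the lower side were Agtr2, the type 2 angiotensin receptor, at 583 and 202 FPKM, and Crabp1, a retinoic acid binding protein, at 386 and 64.6 FPKM. Aldh1a2, the enzyme that makes retinoic acid, was lower as well, at 21.2 and 4.04 FPKM; it belongs to no list and was singled out after its values were seen.

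**Figure D3:**
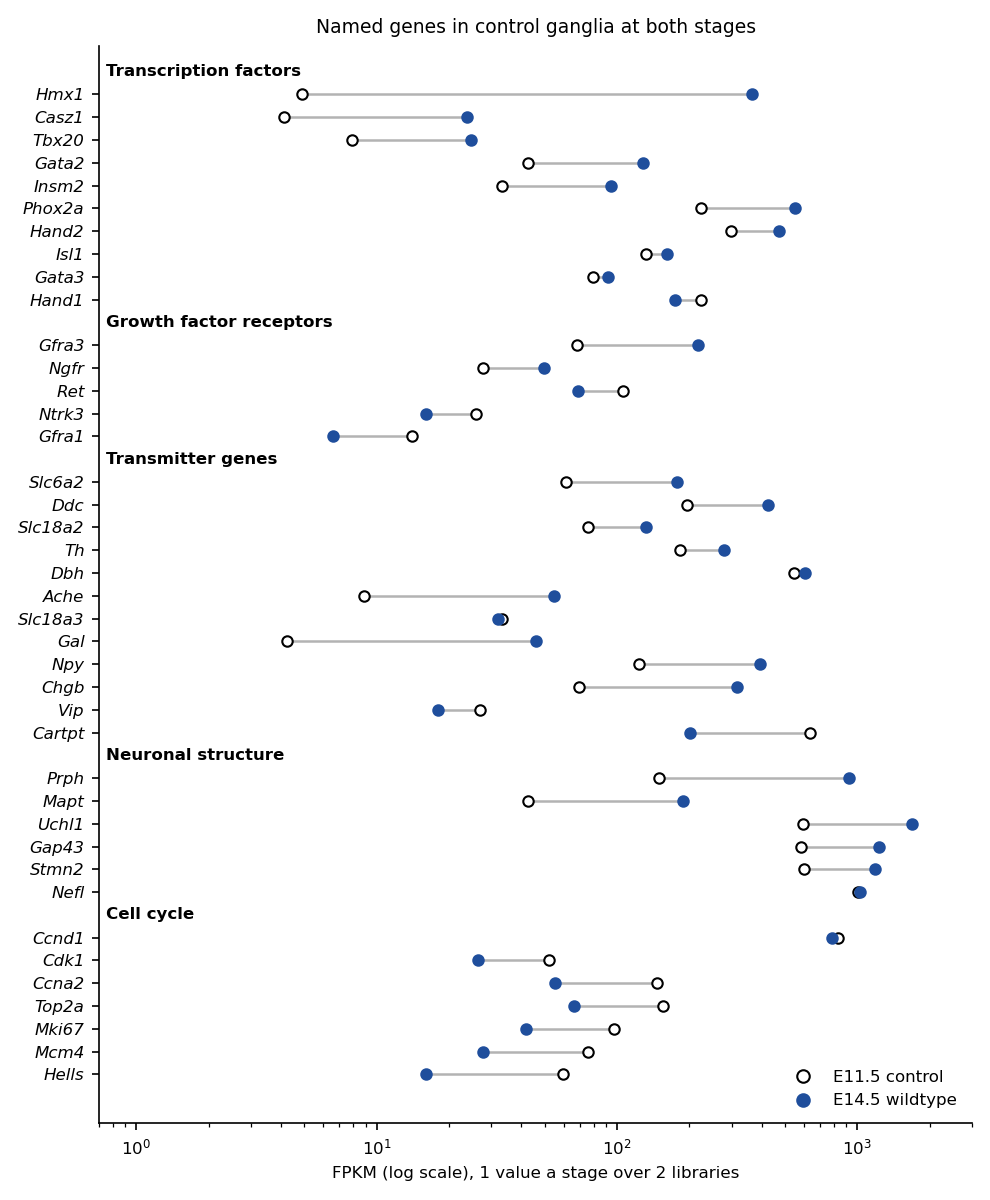
FPKM (log scale) of named genes in E11.5 control (open circles) and E14.5 wildtype ganglia (filled circles), 1 value a stage over 2 libraries. The longest line belongs to Hmx1 (4.88 and 366 FPKM), the cell cycle genes Top2a and Mki67 have the filled circle on the left, and Dbh, Nefl and Ccnd1 have both circles close together.

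Genes of the presynaptic terminal and of excitability had medians above 1. Of 63 joined synaptic vesicle genes 38 were higher and 0 lower, with a median of 1.12, and on the like-GC scale 19 were higher, with a median of 0.82. The shares higher over all genes were 13.1%, and 6.22% on the like-GC scale. Sncg, gamma-synuclein, abundant in peripheral neurons, was at 48.2 and 328 FPKM. Rab3a, the vesicle GTPase, was at 22.5 and 84.6 FPKM, its effector Rph3a at 1.36 and 11.1 FPKM and the vesicle glycoprotein Sv2c at 16.5 and 83.4 FPKM. Members differed mostly in one direction, since 57 of its members with under 10% shared lay above the level of genes of like GC content and 5 below. Nsf, the ATPase that recycles SNARE complexes, was among those near level, at 27.3 and 30 FPKM. Synaptic adhesion genes were higher in 15 of 30, with a median of 1.03, and in 7 on the like-GC scale, with a median of 0.39. They were led among those at 10 FPKM or more by Cadm3, a nectin-like adhesion molecule, at 6.97 and 38.6 FPKM and Nrxn2, a neurexin, at 7.76 and 36.9 FPKM. Slitrk6, a leucine-rich adhesion protein, was the 1 lower member, at 8.08 and 2.29 FPKM.

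Ion channels followed. Sodium, calcium and HCN channel genes were higher in 16 of 25 joined members and lower in 0. Ryr2, a calcium release channel of the endoplasmic reticulum, was at 3.27 and 21.3 FPKM, Cacna1b, the N-type calcium channel of sympathetic terminals, at 10 and 40.6 FPKM and the pacemaker channel gene Hcn4 at 2.54 and 13.9 FPKM. Scn3b, an auxiliary sodium channel subunit, was abundant at both stages at 167 and 209 FPKM. Potassium channel genes were higher in 24 of 41 and lower in 1. Kcnq3, a voltage-gated potassium channel subunit, was at 2.14 and 16.3 FPKM, and Kcnc4, a fast delayed rectifier, at 2.98 and 19.8 FPKM. On the like-GC scale these 2 channel lists had 10 and 14 higher members, with medians of 0.67 and 0.65. Over all genes 13.1% were higher on the plain ratio, and 6.22% on the like-GC scale.

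Structural genes of neurons were higher in 37 of 64 joined members, with a median of 1.08, and on the like-GC scale in 20 of 59, with a median of 0.80. Prph, peripherin, the intermediate filament of peripheral neurons (chr15:98885605-98889409), was at 149 FPKM at E11.5 and 921 FPKM at E14.5. Mapt, tau, was at 42.7 and 188 FPKM, and Gap43, the growth cone protein, at 585 and 1235 FPKM. The neurofilament light chain gene Nefl did not follow them, at 1008 and 1027 FPKM, while Ina, alpha-internexin, was at 159 and 507 FPKM, so filament genes differed among themselves. Stmn1, the 1 lower member, had 91.2% of its windows shared, and its paralogue Stmn2, the neuronal stathmin, was at 598 and 1182 FPKM. Among 73 joined axon guidance genes 23 were higher and 4 lower, and on the like-GC scale 12 and 4 of 70, with a median of 0.12. The shares over all genes were 13.1% and 6.6%, and 6.22% and 4.24% on the like-GC scale. Cxcr4, the receptor of the chemokine Cxcl12, was at 26.4 and 126 FPKM, Plxna3, a semaphorin co-receptor, at 19.1 and 57.2 FPKM and Robo1, a Slit receptor, at 7.63 and 3.09 FPKM. Ecel1, an endopeptidase-like protein of developing neurons chosen by the size of its ratio, was at 9.91 and 182 FPKM, with 3.74 and 33 FPKM in the mutant columns.

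**Figure D4:**
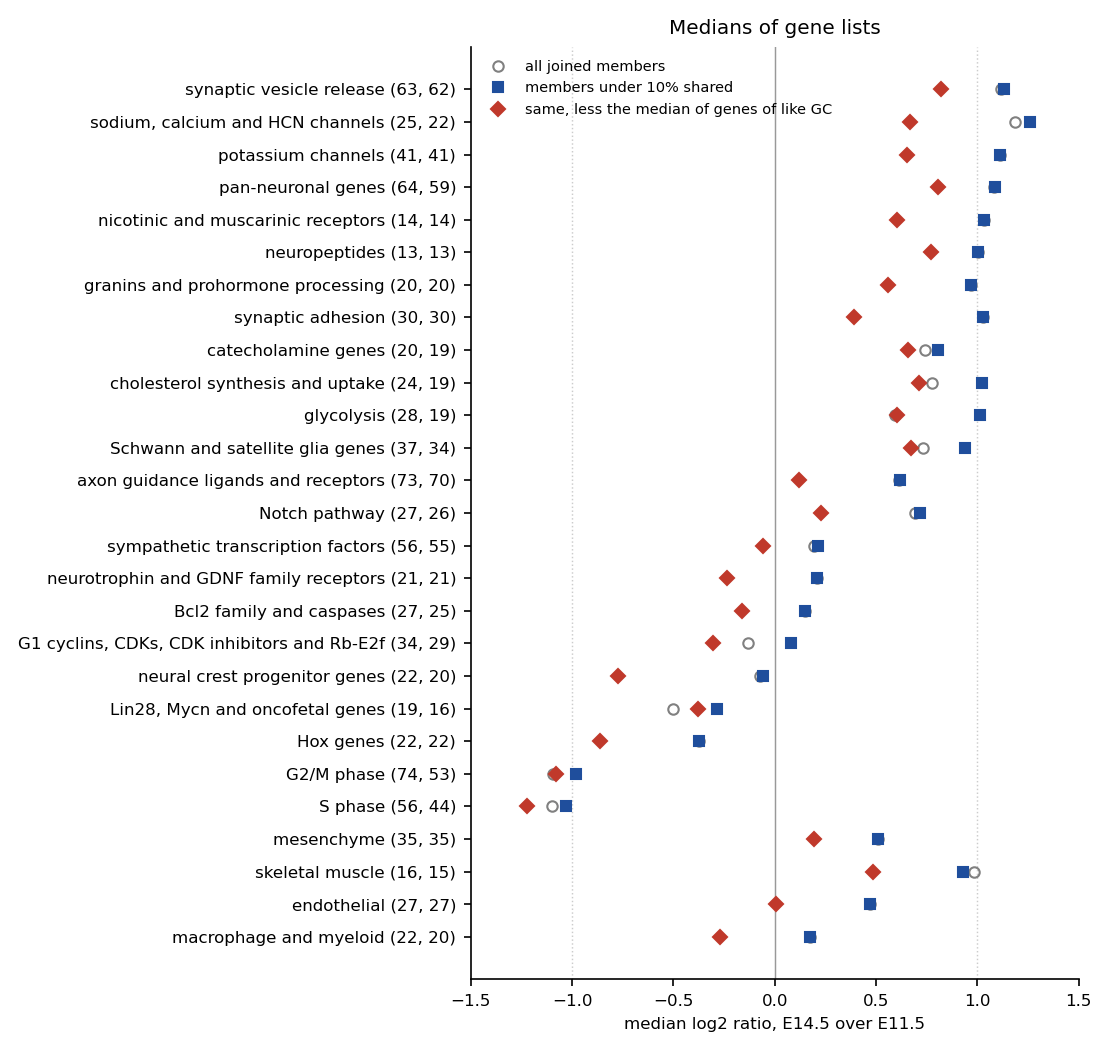
Median log2 ratio (E14.5 over E11.5) of gene lists, for all joined members (circles), members with under 10% of windows shared (squares) and the same relative to genes of like GC content (diamonds). The numbers of joined members and of members with under 10% shared follow each name, and the dotted lines mark 2-fold; the circle and the diamond of synaptic vesicle genes are at 1.12 and 0.82 on the right, and those of G2/M genes at -1.10 and -1.08 on the left.

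Cell cycle genes stood lower at E14.5. Of 56 joined S phase genes 33 were lower and 0 higher, with a median of -1.10, and of 74 joined G2/M genes 43 were lower and 0 higher, with a median of -1.10. Without genes of 10% or more shared sequence the counts were 23 of 44 and 24 of 53, with medians of -1.03 and -0.98, against 2.57% lower among all such genes. On the like-GC scale 34 of 44 and 34 of 53 were 2-fold lower, and each of the 44 and the 53 members lay below the level of genes of like GC content. Top2a, the topoisomerase of dividing cells (chr11:98854257-98885503), was at 156 FPKM at E11.5 and 66.3 FPKM at E14.5, and Mki67, the Ki-67 antigen, at 97.2 and 41.7 FPKM. Ccna2, cyclin A2, was at 147 and 55.2 FPKM, and Cdk1, the kinase of mitotic entry, at 52.2 and 26.4 FPKM, just under 2-fold. Mcm4, a subunit of the replicative helicase, was at 76.1 and 27.7 FPKM, and Hells, a chromatin remodeller of replicating cells, at 59.9 and 16 FPKM. Every one of these stayed well above 10 FPKM at E14.5, so transcripts of dividing cells were still measured there. Regulators of G1 had 3 of 34 joined genes higher and 2 lower, against 13.1% and 6.6% of all genes, with a median of -0.13. On the like-GC scale 2 of 29 were higher and 3 lower, with a median of -0.30. Of these members 19 lay below the level of genes of like GC content and 10 above. Ccnd1, cyclin D1, was at 831 and 782 FPKM, the highest level of that list at both stages, Cdk4, its partner kinase, at 390.0 and 245 FPKM and Cdkn1b, the inhibitor p27, at 36.2 and 63.7 FPKM. Cdk4 was among the lower genes on the like-GC scale, at -1.11. The genes higher on the plain ratio were Myc, Cdk5r1 and Cdk5r2. The last 2 activate the neuronal kinase Cdk5 and were at 19.9 and 53.1 FPKM and at 5.78 and 27 FPKM.

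Promoters of cell cycle genes often hold CCAAT boxes, the CHR element and E2f sites. Those of 6 genes picked by hand from the S phase and G2/M lists are shown as examples. All 6 hold CCAAT, unlike the lists as a whole, whose shares are given below. The 180 bases before the RefSeq start (GRCm38.p6) are printed, with matches on either strand in capitals and overlapping matches joined. The motifs searched were the box CCAAT, the CHR core TTTGAA and, as E2f letters, any of TTTCCCGC, TTTGGCGC and TTTCGCGC.
Top2a, chr11:99024190-99024369, minus strand: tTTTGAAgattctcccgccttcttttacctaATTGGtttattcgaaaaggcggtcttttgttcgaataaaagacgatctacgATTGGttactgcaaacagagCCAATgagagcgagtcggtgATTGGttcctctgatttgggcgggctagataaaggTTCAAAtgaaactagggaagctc
Cdk1, chr10:69352913-69353092, minus strand: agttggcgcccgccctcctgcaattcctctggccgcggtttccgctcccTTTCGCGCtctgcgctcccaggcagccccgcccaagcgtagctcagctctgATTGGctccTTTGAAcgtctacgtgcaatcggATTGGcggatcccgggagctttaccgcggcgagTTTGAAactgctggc
Mki67, chr7:135716380-135716559, minus strand: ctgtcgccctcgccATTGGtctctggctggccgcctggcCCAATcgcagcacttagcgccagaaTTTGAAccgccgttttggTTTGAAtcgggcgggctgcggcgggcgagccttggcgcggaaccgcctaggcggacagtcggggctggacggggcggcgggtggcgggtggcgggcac
Ccnb2, chr9:70421555-70421734, minus strand: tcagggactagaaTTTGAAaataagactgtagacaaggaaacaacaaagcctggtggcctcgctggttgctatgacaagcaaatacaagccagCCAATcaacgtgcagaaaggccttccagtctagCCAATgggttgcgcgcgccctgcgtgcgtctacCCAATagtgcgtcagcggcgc
Aurka, chr2:172370571-172370750, minus strand: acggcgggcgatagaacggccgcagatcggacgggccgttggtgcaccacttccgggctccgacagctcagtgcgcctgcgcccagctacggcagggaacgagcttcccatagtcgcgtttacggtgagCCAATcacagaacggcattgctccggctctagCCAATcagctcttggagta
Mcm5, chr8:75109329-75109508, plus strand: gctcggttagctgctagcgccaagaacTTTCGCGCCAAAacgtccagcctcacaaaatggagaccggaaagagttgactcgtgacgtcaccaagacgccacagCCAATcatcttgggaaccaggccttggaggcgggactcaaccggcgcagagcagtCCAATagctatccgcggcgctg
Within 250 bases before the start, CCAAT was in 48 of 62 G2/M promoters (77.4%) and 26 of 42 S phase promoters (61.9%), beside 40.4% of the 9452 compared genes with a promoter and 33.8% of 32851 start sites. TTTGAA was in 27 G2/M promoters (43.5%) and 5 S phase promoters, beside 11.9% of compared genes. The E2f letters were in 11 S phase promoters (26.2%) and 4 G2/M promoters, beside 3.5%. Of these 2 lists, CCAAT and TTTGAA were thus more frequent before the G2/M genes and the E2f letters before the S phase genes, as a description of these windows. Log2 ratios of the genes shown were -1.23 for Top2a, -0.98 for Cdk1, -1.22 for Mki67, -0.69 for Ccnb2, -1.22 for Aurka and -1.22 for Mcm5.

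**Figure D5:**
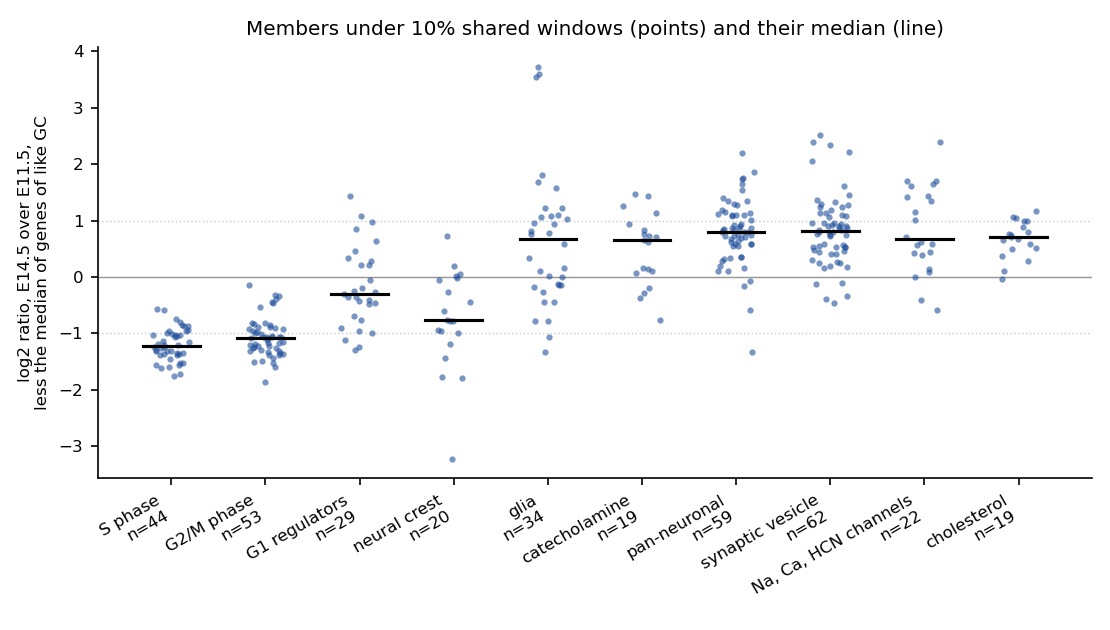
Members of 10 lists with under 10% of windows shared (points, spread sideways only for visibility), as log2 ratio (E14.5 over E11.5) relative to the median of genes of like GC content, with the list's median as a line and dotted lines at 2-fold. S phase and G2/M members lie below 0, with medians of -1.22 and -1.08, and the synaptic vesicle and channel members mostly above it, with medians of 0.82 and 0.67.

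Genes of the early crest and of glia differed in direction. Among 22 joined neural crest progenitor genes 0 were higher and 7 lower, with a median of -0.07, against 13.1% and 6.6% of all genes. On the like-GC scale 0 of 20 were higher and 5 lower, with a median of -0.77, against 6.22% and 4.24%. Crabp1 had the second lowest log2 ratio of the list, -2.58, after Phgdh, a serine synthesis enzyme with 93.5% of its windows shared. Snai2, the transcriptional repressor Slug of migrating crest cells, was at 9.05 and 3.96 FPKM. Sox10, which crest cells and glia share, was level at 29.3 and 28.7 FPKM, as was Ednrb, the endothelin receptor B, at 90 and 85.2 FPKM. Schwann and satellite glia genes were higher in 16 of 37 joined members and lower in 3, or 16 and 1 of 34 with under 10% shared, with a like-GC median of 0.67. Fabp7, a fatty acid binding protein of early glia, was at 90.9 and 257 FPKM, Apoe, apolipoprotein E, at 67.7 and 222 FPKM and Abca8a, a lipid transporter, at 1.18 and 16.5 FPKM. Fabp5, a related fatty acid binding protein with 90% of its windows shared, was lower, at 346 and 78.4 FPKM. Genes with that much shared sequence separated the tables, so its value is not read further. Of the 34 with under 10% shared, the 1 lower gene was Cdh19, at 6.02 and 2.04 FPKM. In the Notch pathway 8 of 27 joined genes were higher and 2 lower, with a median of 0.69, against 13.1% and 6.6% of all genes. On the like-GC scale 3 of 26 were higher and 1 lower, with a median of 0.23. Dner, a neuronal Notch ligand, was at 2.15 and 21.7 FPKM and Hey2, a Notch target, at 4.91 and 19.6 FPKM, and Dll3, a ligand of early neuroblasts, was at 5.8 and 1.93 FPKM.

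Genes of the fetal growth programme and of body position had medians below 0, -0.50 and -0.37. Lin28b, which blocks let-7 maturation, was at 7.98 and 2.18 FPKM, and the 19 joined genes of that list had 0 higher and 4 lower members, or 0 and 1 of 16 with under 10% shared. Shares higher and lower over all genes were 13.1% and 6.6%, or 14.6% and 2.57% with under 10% shared. On the like-GC scale they were 6.22% and 4.24%. Mycn, expressed in sympathetic neuroblasts, was at 56 and 63.6 FPKM and Igf2, the fetal growth factor, at 374 and 398 FPKM, both close to level. Of 22 joined Hox genes 2 were higher and 5 lower, or 0 and 9 on the like-GC scale, with Hoxa7 at 13.4 and 3.71 FPKM and Hoxc5 at 14.8 and 5.56 FPKM on the lower side, and Hoxc4, the most abundant of them at E11.5, at 40.4 and 34.7 FPKM.

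Metabolic genes divided by shared sequence. Of 24 joined cholesterol synthesis and uptake genes 10 were higher, and these 10 were among the 19 with under 10% shared, whose median was 1.02. Sqle, squalene epoxidase, was at 67.7 and 152 FPKM, and Tm7sf2, a sterol reductase, at 12.6 and 38.5 FPKM, with like-GC values of 0.89 and 1.06. On the like-GC scale 3 of the 19 were 2-fold higher, and 6 of the 19 glycolysis and hypoxia-linked genes. The latter genes were likewise higher on the plain ratio in 10 of the 19 with under 10% shared, among them the neuronal enolase Eno2 at 3.34 and 21.3 FPKM, the glucose transporter Slc2a3 at 46.5 and 138 FPKM and the prolyl hydroxylase Egln3 at 32.8 and 123 FPKM. The main glycolytic enzymes, such as Pgk1 with 91.5% of windows shared, were in the class whose values separated the tables and are not read further. The same holds for cytosolic ribosomal proteins, of which 68 of 72 had 10% or more shared, 64 being lower and 0 higher. Oxidative phosphorylation subunits with under 10% shared were 2 higher and 0 lower of 47, with a median of 0.17, below that of all such genes.

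Some genes were listed in 1 table only. At E11.5 only, 54 of 670 genes other than small RNA were at 10 FPKM or more in the control column, and 24 of them had 10% or more shared, 29 were not matched to the annotation and 1, Adamts18, a metalloprotease at 14.1 FPKM, had less. The highest were Ppia, Rps27rt, Rps28, Rpl23a, Rpl3, Gapdh, Rpl9, Rpl17, Gm10052 and Gm6793, led by Ppia (cyclophilin A) at 2253 FPKM. At E14.5 only, 22 of 576 were at 10 FPKM or more, headed by the adult globin Hbb-b1 at 2638 FPKM, with 50% of its windows shared. Of the 22, 5 had 10% or more shared, 11 were not matched and 6 had under 10% shared. No fold can be given for such genes.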

How the data were processed

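RNA of sympathetic ganglia was amplified from poly(A) RNA and sequenced as 90-base paired ends. The authors aligned reads to mm9 with TopHat and estimated FPKM per gene with Cuffdiff, in 1 run per stage, and the deposited tables give 1 FPKM per gene and genotype. The study's methods and the submitters' processing notes differ on the aligner's version, and the notes (TopHat 1.3.1, Cuffdiff 1.3.0, Bowtie) list the fly build dm3, so versions and settings are uncertain. The authors' fold change and p-value columns compare mutant with control within a stage and were not used.

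Tables were joined on symbols occurring once in each, and log2 ratios were taken with a pseudocount of 0.1. Genes were matched to GENCODE M1 (mm9) by symbol, 12115 of 12548 matching. Windows of 90 bases every 30 bases were aligned to mm9 with minimap2 2.31, and counted as shared where at least 85 bases aligned more than 1000 bases outside the gene with at most 3 mismatches. Promoters came from RefSeq (GRCm38.p6), and motif positions count back from the start. With 1 value per group no test was made, and a count past 2-fold stands in its place. The script was tested on simulated data.

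Genes, lists and groupings were chosen with earlier results of these data known. Genes named were drawn from the 15 highest and 15 lowest ratios at 10 FPKM or more, members of the lists (the most abundant and the largest differences), the 10 highest of those in 1 table only, and genes the study names. Depth per library was unknown. Other scalings, pseudocounts, filters and folds were tried. Some genes are not reported here.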

Additional observations from a re-analysis of the deposited data

How the results depend on the processing

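No paired analysis was possible because each deposited column pools the 2 libraries of its genotype, and for the same reason no replicate could be left out. Depth was unknown, so counting error was not estimated. The scaling between tables set the number of genes 2-fold apart and the share of them higher. Centring on the median of all genes gave 1057 higher genes, a share of 47.4% and a median of 0. Columns set to the same total without erythroid and small RNA genes gave 2463 higher, 79.6% and 0.44, and centring on genes at 10 FPKM or more at both stages gave 53.3% and 0.065. Centring on ribosomal protein genes gave 12391 higher and 52 lower, 99.6% and 4.17. The share was 62.9% with a pseudocount of 1, 64.5% with 1 FPKM or more at both stages, 63.1% with 5 FPKM or more at either and 69.0% with the hypomorphic column in place of the wildtype column. A fold of 1.5 gave 3676 higher and 1581 lower (69.9% higher), and a fold of 4 gave 226 and 274 (45.2%). Restriction to genes with under 10% shared gave 1523 higher and 268 lower (85.04% higher), and with like-GC medians removed 648 higher and 442 lower (59.4% higher). Both of these restrictions were chosen after seeing the data.

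Of 90 named genes 2-fold apart, some chosen for large ratios, 90 kept their direction and 84 stayed 2-fold after centring on all genes. With the hypomorphic column 89 and 71 did, and of the 82 with under 10% shared, 82 and 69 did on the like-GC scale. List medians were less stable. Of 12 past 2-fold, each kept its direction under these settings. After centring on all genes 5 stayed 2-fold, on the like-GC scale 5 and with the hypomorphic column 6. The first 2 settings kept the same 5: S phase, G2/M, cytosolic ribosomal protein, liver and yolk sac, and epithelium genes. Under both, the synaptic vesicle, synaptic adhesion, channel, neuronal structure, acetylcholine receptor and neuropeptide lists were under 2-fold. Ribosomal centring, which by construction subtracts a median of -3.94 from each log2 ratio, turned the medians of S phase (2.84) and G2/M (2.85). It also turned Agtr2 (2.41), Aldh1a2 (1.58), Aurka (2.73), Cartpt (2.27), Ccna2 (2.53), Crabp1 (1.36), Dll3 (2.40), Fabp5 (1.80), Foxc1 (2.24), Gfra1 (2.87), Hba-x (0.45), Hbb-y (1.46), Hells (2.04) and Hoxa7 (2.11). The others it turned were Hoxc5 (2.55), Lin28b (2.11), Mcm4 (2.49), Mcm5 (2.72), Mki67 (2.72), Pdgfra (2.74), Phgdh (0.60), Robo1 (2.67), Slitrk6 (2.16), Snai2 (2.77), Stmn1 (0.71) and Top2a (2.71). With the hypomorphic column Tbx20 was at -0.13, and the cause was not tested.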
